A study of Rattus norvegicus with 63 samples.

Results

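The 10 genes described here were C1qa, C1qb, C1qc, Csf1r, Cx3cr1, Aif1, Cd68, Tyrobp, Trem2 and Itgam, microglia and complement genes chosen by name, out of 14218 genes measured with a single annotated symbol. Each gene was represented by the probe set that carried its symbol alone and had the highest mean log2 signal. Of the 10 genes, 6 passed the filter on low signal and were tested among 8530 genes, namely C1qa, C1qb, C1qc, Csf1r, Aif1 and Tyrobp. The other 4, Cx3cr1, Cd68, Trem2 and Itgam, lay among the 40% of genes of lowest mean signal, and their values come from a second fit with no filter.

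RNA was measured on 63 Affymetrix arrays of male Wistar rats, 31 from the prefrontal cortex and 32 from the striatum, the latter taken as rostral caudate putamen plus nucleus accumbens. Rats were bought at 4 weeks of age and injected intraperitoneally 2 times a day for 7 days from 6 weeks of age. They were then conditioned with a drug in a place preference test and finally given it for intravenous self-administration. In the naive cohort every rat received saline injections during those 7 days. Its groups were then conditioned with saline (5 arrays per region), amphetamine at 1.25 or 5 mg/kg, methamphetamine at 1.25 or 5 mg/kg, or methylphenidate at 5 mg/kg (3 arrays per group and region, 2 for methamphetamine at 1.25 mg/kg in the prefrontal cortex). In the pretreated cohort the stimulant itself was injected at 5 mg/kg for 7 days, and the same drug and dose were used for conditioning (amphetamine, methamphetamine, methylphenidate and a saline control, 3 arrays per group and region). Each infusion delivered 0.1 mg/kg of either amphetamine drug, whereas for methylphenidate it was 0.25 mg in 0.1 ml, and infused doses were therefore unmatched. Brains were taken a day after the final session, only from animals with the strongest self-administration. The descriptions speak of RNA pools but name about as many rats as arrays, so it is unclear whether an array is a pool or a rat, and p-values measure the spread between these arrays.

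Signals were scaled by the submitters to the same trimmed mean (500.1 to 500.2 on every array), and replicate arrays correlated at 0.931 to 0.958 over all probe sets. The naive arrays fell into 2 classes by the signal of BioB, a bacterial control transcript added to each hybridisation. It was 5.96 to 6.68 (log2) on the 16 naive arrays of saline replicates 4 and 5, amphetamine at 5 mg/kg and methylphenidate at 5 mg/kg, and 9.35 to 10.63 on the other 23 naive arrays. All 24 pretreated arrays had a high BioB signal (9.01 to 10.21). One striatal array, replicate 1 of naive methamphetamine at 1.25 mg/kg, carried a cortical gene profile: its striatal minus cortical marker score was -0.48, where cortical arrays scored -1.77 to 0.32 and the remaining striatal arrays 3.93 to 6.69.

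Microglia are the resident macrophages of the brain and make most of the C1q found there. C1q is assembled from A, B and C chains, encoded by C1qa, C1qb and C1qc, and is the recognition molecule that starts the classical complement pathway. In the developing and the diseased brain it labels synapses that microglia then engulf through complement receptors, of which Itgam encodes a chain. In bulk tissue, fewer microglia and less RNA per microglial cell cannot be told apart.

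The starts of C1qa and C1qb are shown because these chains varied together across arrays, as described further on, and lie close to each other on rat chromosome 5. The windows are the 150 bases before each start in the RefSeq table of build GRCr8, read 5′ to 3′ on the minus strand, with matches to either of 2 searched motifs in capitals. The motifs, searched on both strands, were GAGGAA, a core of the sites of PU.1, and TGTGGT, a core of the sites of RUNX factors, both known as regulators of macrophage genes.
C1qa, chr5:154419934-154420083: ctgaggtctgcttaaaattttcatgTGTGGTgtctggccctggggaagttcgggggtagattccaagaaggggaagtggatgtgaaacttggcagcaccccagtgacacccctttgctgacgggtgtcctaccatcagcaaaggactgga
C1qb, chr5:154407828-154407977: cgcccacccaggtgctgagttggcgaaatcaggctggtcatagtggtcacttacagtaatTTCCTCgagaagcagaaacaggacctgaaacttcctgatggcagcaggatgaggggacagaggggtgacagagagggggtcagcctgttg
The capitals in C1qa are TGTGGT at -125 to -120 from the start, and those in C1qb are TTCCTC at -90 to -85, which is GAGGAA on the other strand. RefSeq windows from 250 bases before to 50 after the start were found for 7 of the 10 genes, all but C1qc, Aif1 and Tyrobp. GAGGAA occurred in 5 of these 7 windows (71.4%: C1qb, Csf1r, Cd68, Trem2 and Itgam), against 27.6% of 33469 RefSeq windows of the same length. TGTGGT occurred in 3 of the 7 (42.9%: C1qa, Cx3cr1 and Itgam), against 17.3% of all windows, and the 2 motifs did not overlap in any of the 7. A match describes letters in a window and not a bound site.

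Among the complement chains, C1qa ranged from 10.22 to 11.33 (log2 signal, median 10.65) over the cortical arrays and from 10.52 to 12.24 (median 10.88) over the striatal arrays. C1qb ranged from 8.53 to 10.12 (median 8.92) in the cortex and from 8.64 to 10.72 (median 9.33) in the striatum. C1qc ranged from 8.03 to 9.72 (median 8.71) and from 7.95 to 10.36 (median 8.97). Within groups C1qa had the smallest spread of these chains, with a pooled SD of 0.23 in the cortex and 0.32 in the striatum, against 0.32 and 0.36 for C1qb. In the cortex the mean of C1qb was highest after naive amphetamine at 1.25 mg/kg (9.90 ± 0.19, SD, n = 3) and next highest after naive methamphetamine at 1.25 mg/kg (9.73 ± 0.27, n = 2), a gap within the spread of these groups. The lowest cortical means of C1qb, 8.72 ± 0.13 after pretreated amphetamine and 8.74 ± 0.08 after naive methylphenidate (n = 3 each), also differed by less than their SDs. In the striatum the highest group means of C1qa, C1qb and C1qc were all those of pretreated methamphetamine (11.37 ± 0.78, 9.87 ± 0.80 and 9.48 ± 0.88), and the lowest were all those of pretreated saline (10.70 ± 0.16, 8.82 ± 0.12 and 8.33 ± 0.34, n = 3 each).

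**Figure D1:**
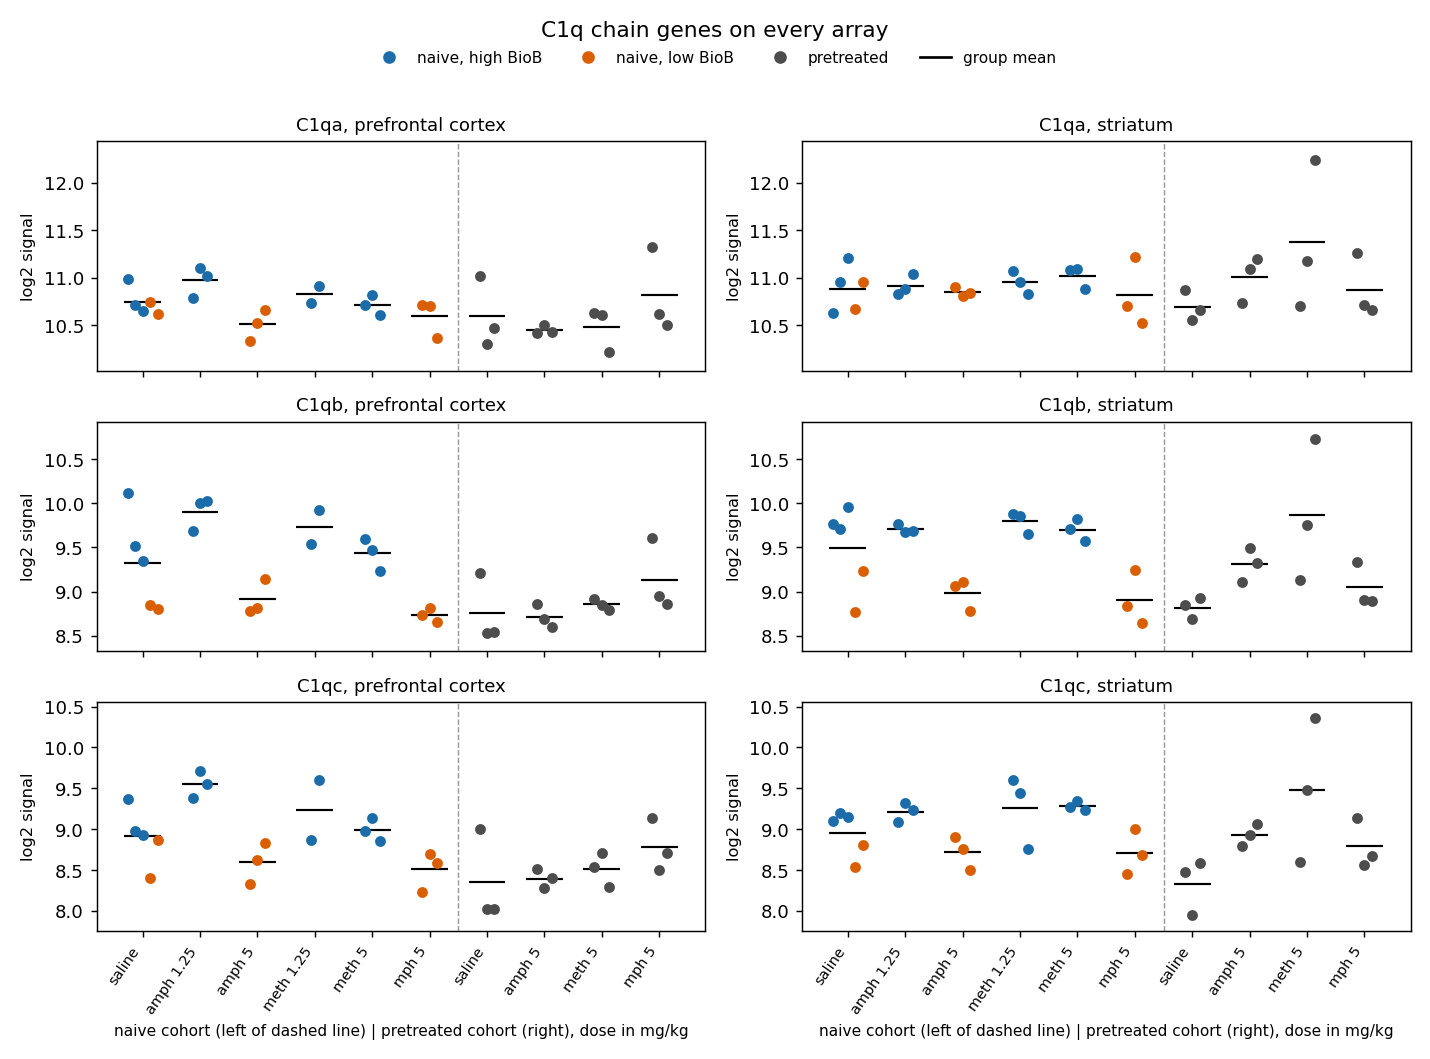
Log2 signal of C1qa, C1qb and C1qc on every array of both regions (vertical axes), by cohort, drug and dose in mg/kg (horizontal axes), with group means as bars and points coloured by cohort and BioB class. The low-BioB naive arrays lie at 8.64 to 9.24 for C1qb in the striatum, below the high-BioB naive arrays at 9.57 to 9.96, and pretreated methamphetamine reaches 10.72.

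Among the receptors and their adaptor, Csf1r encodes the receptor for the colony-stimulating factor on which microglia depend for survival. It ranged from 8.88 to 10.26 (median 9.53) in the cortex and from 8.51 to 10.32 (median 9.65) in the striatum, and its pooled SD was larger in the striatum (0.42) than in the cortex (0.27). Tyrobp encodes the adaptor, also called DAP12, that passes on the signal of Trem2 and other myeloid receptors. It ranged from 8.17 to 10.27 (median 8.70) in the cortex and from 8.51 to 10.34 (median 9.0) in the striatum. Its highest group means were those of methamphetamine: 9.39 ± 0.14 (n = 2, naive, 1.25 mg/kg) in the cortex and 9.88 ± 0.43 (n = 3, pretreated) in the striatum. Trem2, the lipid-sensing receptor that signals through Tyrobp, ranged from 6.41 to 7.97 in the cortex and from 6.20 to 7.73 in the striatum. Cx3cr1, the receptor through which microglia sense the neuronal chemokine fractalkine, ranged from 6.80 to 7.74 and from 6.32 to 7.78. Both lay below the filter on low signal.

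Aif1 encodes Iba1, the actin-binding protein commonly used to stain microglia, and it ranged from 9.15 to 10.45 (median 9.55) in the cortex and from 9.52 to 10.54 (median 10.09) in the striatum. Its cortical mean after naive methamphetamine at 1.25 mg/kg (10.37 ± 0.12, n = 2) was the highest, followed by 9.80 ± 0.35 (n = 3) after naive amphetamine at the same dose. Cd68, a lysosomal glycoprotein of phagocytes, ranged from 4.52 to 6.22 in the cortex and from 2.54 to 6.79 in the striatum. Itgam, the alpha chain of a complement receptor on microglia and other myeloid cells, ranged from 2.51 to 7.18 and from 3.51 to 6.99. The pooled SD was 0.43 and 0.71 for Cd68 and widest in both regions for Itgam, at 0.83 and 0.91. Aif1 and Trem2 each had a second probe set of lower signal, whose deviations from the group means correlated at 0.29 (Aif1) and 0.49 (Trem2) with those of the one used over the 63 arrays.

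**Figure D2:**
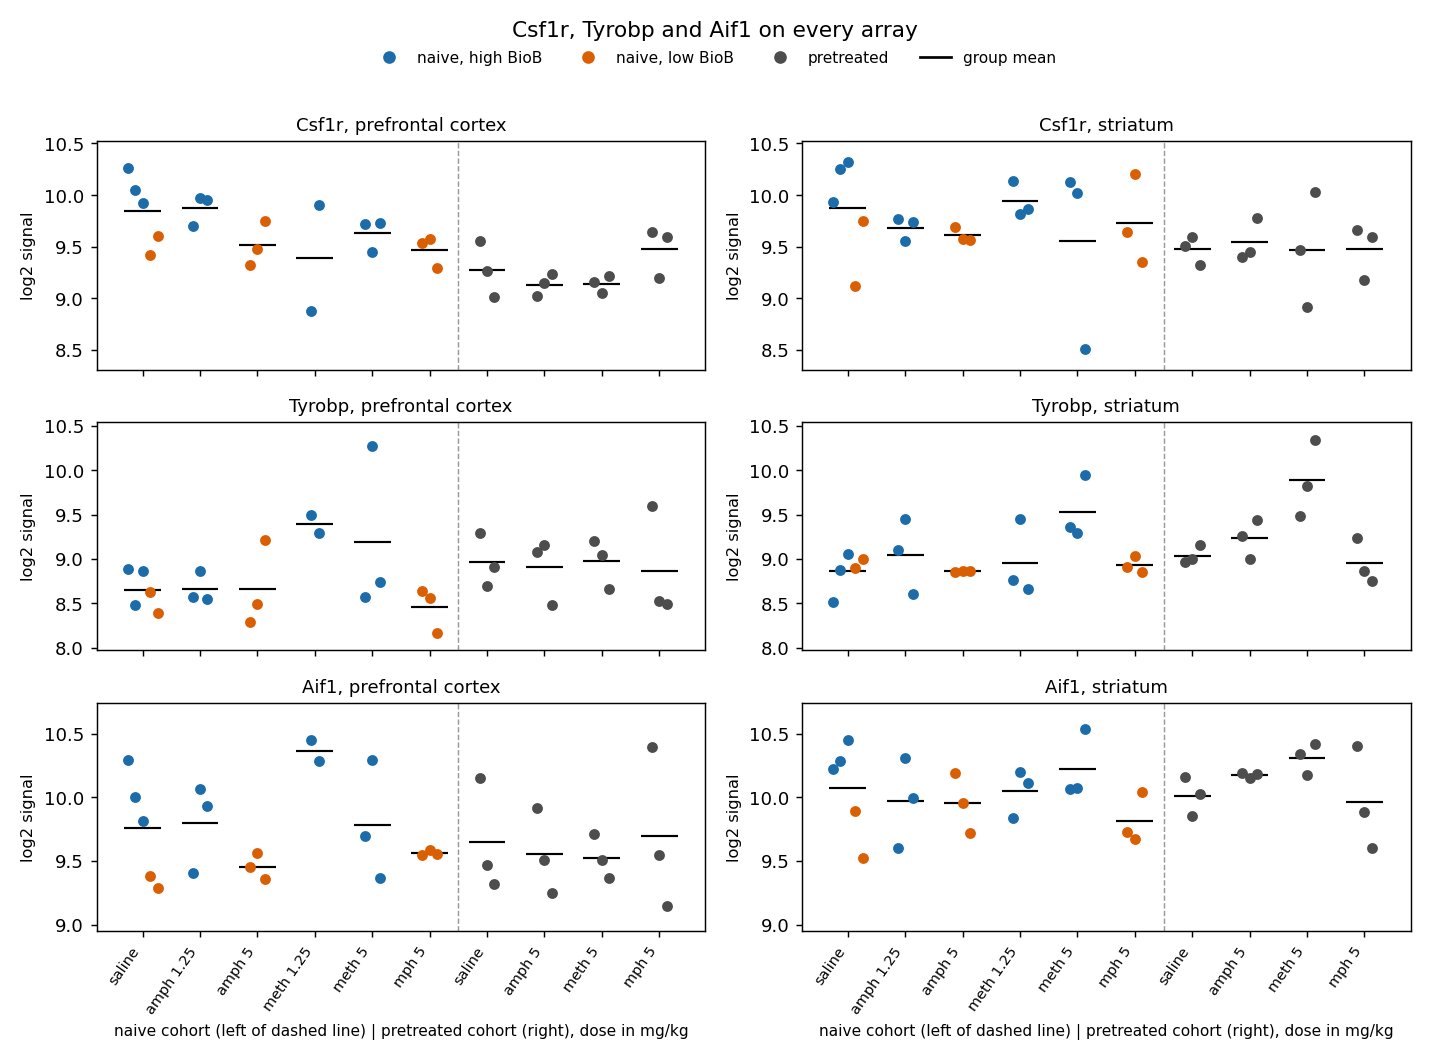
Log2 signal of Csf1r, Tyrobp and Aif1 on every array (vertical axes) by cohort, drug and dose in mg/kg (horizontal axes), with group means as bars and points coloured by cohort and BioB class. Tyrobp is highest after pretreated methamphetamine in the striatum (9.49 to 10.34), and Csf1r has single low arrays at 8.88 in the cortex and 8.51 in the striatum.

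The first comparison asked whether the set shifted with stimulant self-administration, with the mean of the stimulant groups set against saline in each region and cohort (limma with Benjamini-Hochberg adjustment over 8530 genes, called at an adjusted p under 0.05). None of the 6 tested genes was called in any of the 4 comparisons. The share of all genes called was 0.0586% in the naive cortex, 0.0703% in the pretreated cortex, 0.0938% in the naive striatum and 0.363% in the pretreated striatum. At an unadjusted p under 0.05 the counts were 1, 0, 0 and 2 of the 6 genes, against 745, 465, 984 and 1385 of all 8530.

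In the naive cortex the 6 genes had a median difference of 0.03 on the log2 scale, against 0.00 over all genes tested. C1qa, C1qb and C1qc differed from saline by -0.02, 0.02 and 0.06 there. Csf1r was the member furthest from 0, at -0.27 (SE 0.13, 95% interval -0.54 to -0.01, adjusted p = 0.556). In the pretreated cortex the median was -0.02 and the smallest adjusted p was 1, with C1qc at 0.22 and C1qb at 0.14. In the naive striatum the median was -0.02, and the differences ran from -0.17 for Csf1r to 0.20 for Tyrobp (smallest adjusted p = 0.632).

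In the pretreated striatum all 6 differences were above 0, with a median of 0.35 against -0.01 over all genes tested. The C1q chains led: C1qc was 0.73 above saline (SE 0.23, 95% interval 0.27 to 1.2, adjusted p = 0.113), C1qb 0.59 (SE 0.22, 0.14 to 1.03, adjusted p = 0.19) and C1qa 0.39 (SE 0.19, adjusted p = 0.317). Tyrobp stood at 0.32 (adjusted p = 0.376), Aif1 at 0.14 and Csf1r at 0.02. Of the genes below the filter, Cd68 stood at 1.36 (adjusted p = 0.185 in the fit with no filter), and its 3 saline arrays ran from 2.54 to 5.66. Without methamphetamine replicate 1, C1qc was called in this comparison, but the share of all genes called was not taken for that fit.

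**Figure D3:**
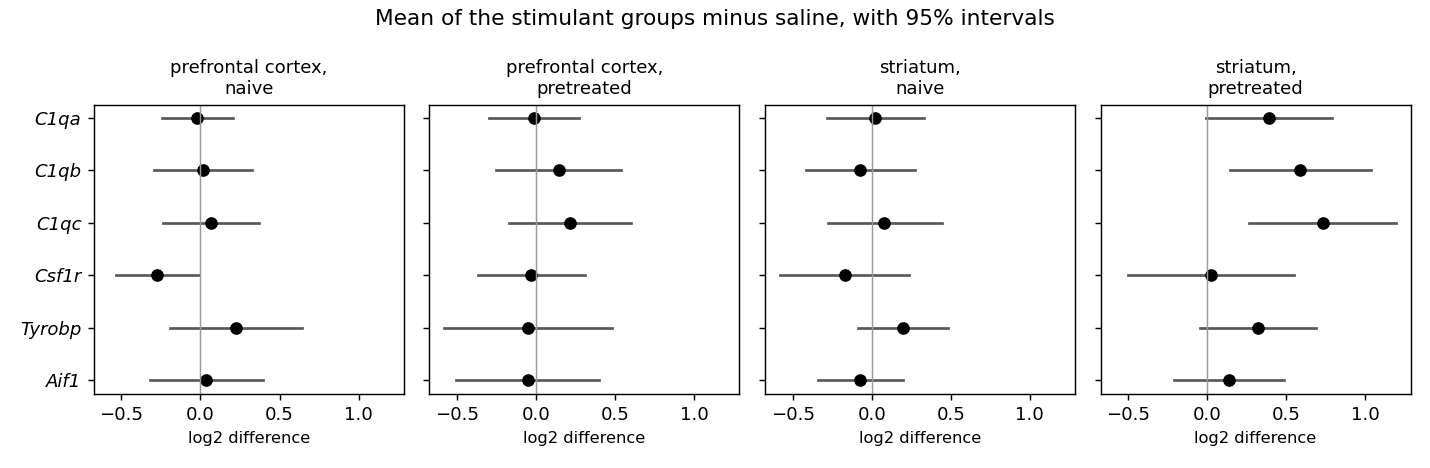
Difference between the mean of the stimulant groups and saline for the 6 tested genes (points, horizontal axes in log2 units) with 95% intervals (lines), 1 panel per region and cohort. In the pretreated striatum the intervals of C1qb and C1qc lie above 0 (0.14 to 1.03 and 0.27 to 1.2), and none of the 24 differences passed the adjusted threshold.

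Across the 16 comparisons of a single stimulant group with saline, 1 of 96 differences of the set was called, against 0.848% of all differences tested. This was C1qc in the pretreated striatum after methamphetamine at 5 mg/kg. Its saline arrays read 8.47, 7.95 and 8.58 and its methamphetamine arrays 8.60, 9.48 and 10.36. All 3 methamphetamine arrays lay above all 3 saline arrays, the first of them by little. The share of all genes without overlap between single groups was not taken here or below, so non-overlap of groups is a description only. The difference was 1.14 (2.21-fold, SE 0.28, 95% interval 0.57 to 1.71, adjusted p = 0.0478), and 0.703% of all genes were called in this comparison and 0.434% were called higher.

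The other chains ran in parallel on these arrays. C1qb read 8.85, 8.69 and 8.93 under saline and 9.13, 9.76 and 10.72 under methamphetamine, without overlap, a difference of 1.05 (SE 0.27) that missed the threshold (adjusted p = 0.0595). C1qa read 10.87, 10.56 and 10.66 under saline and 10.70, 11.18 and 12.24 under methamphetamine, with 1 methamphetamine array inside the saline range (difference 0.68, SE 0.24, adjusted p = 0.164). The rank of the methamphetamine arrays was the same for each chain, with replicate 3 the highest.

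Tyrobp read 8.97, 9.0 and 9.15 under saline and 9.49, 9.82 and 10.34 under methamphetamine, again without overlap (difference 0.85, SE 0.22, adjusted p = 0.064). Aif1 also did not overlap, at 9.85 to 10.16 under saline and 10.17 to 10.42 under methamphetamine, a difference of 0.30 (adjusted p = 0.487). Csf1r did not follow this pattern. It read 9.51, 9.59 and 9.32 under saline and 9.47, 8.91 and 10.03 under methamphetamine, a difference of -0.00. Among the genes below the filter, Cd68 differed by 1.5 (adjusted p = 0.232), Cx3cr1 by -0.01, Trem2 by -0.20 and Itgam by -0.62, its 3 methamphetamine arrays running from 3.51 to 6.99.

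The call for C1qc depended on single arrays: without methamphetamine replicate 3 the difference was 0.70 (adjusted p = 0.239), without replicate 2 it was 1.14 (adjusted p = 0.237), and leaving out any saline array gave 0.95 to 1.27 (adjusted p = 0.116 to 0.187). Without methamphetamine replicate 1 it was 1.59 (adjusted p = 0.00044), and C1qa, C1qb (1.42, adjusted p = 0.0016) and Tyrobp (1.04, adjusted p = 0.012) were called too. Without the striatal array of cortical profile, which belongs to another group, C1qc, C1qb and Tyrobp passed the threshold (adjusted p = 0.0347, 0.0459 and 0.0471). The share of all genes called was not taken for any of these fits, so the added calls are not read as a result about the set.

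Markers of other cells were also read on these arrays, as a description. In the striatum 1 of the 11 measured monocyte, neutrophil and lymphocyte genes passed the filter on low signal. Of the 8 measured border macrophage genes 1 passed it, Pf4, with a difference of 0.07 between methamphetamine and saline (adjusted p = 0.911). Replicate 3 of pretreated methamphetamine, which had the highest signal of all 63 arrays for C1qa, C1qb, C1qc, Cd68 and Tyrobp, also had the highest for S100a8 and S100a9, the subunits of calprotectin, which neutrophils and monocytes carry in quantity. On the linear scale S100a8 read 54.6, 6.07 and 20.7 under saline and 45.1, 405.9 and 1367 under methamphetamine, with a median of 40.9 over the other 60 arrays. S100a9 read 101, 40 and 79.3 under saline and 105, 716 and 2457 under methamphetamine, with a median of 122 over the others. High values also occurred elsewhere. S100a8 reached 654 on a naive cortical array of amphetamine at 1.25 mg/kg, and S100a9 reached 1653 on a naive striatal array of methylphenidate. The order of the 3 methamphetamine arrays was the same for both as for the C1q chains. The whole list of 11 measured monocyte, neutrophil and lymphocyte genes summed to 500 to 624 under saline and 741 to 4540 under methamphetamine. S100a8 and S100a9 made up most of the sum on methamphetamine replicates 2 and 3, and the other 9 genes summed to 400 to 492 and 590 to 748. Of the 11 genes 9 had a higher mean under methamphetamine and 2 lay above saline on all 3 arrays, while Cd3g, a T cell gene, read 2.04, 33.1 and 18.6 against 32.4 to 35.5. The 8 measured border macrophage genes summed to 534 to 596 and 591 to 1091; of these Mrc1 read 94.4, 175 and 189 under methamphetamine against 105 to 119 under saline, and Cd163 15.5, 81.7 and 105 against 8.39 to 33.5. Of the 8 genes 6 had a higher mean under methamphetamine and 1, F13a1, lay above saline on all 3 arrays, while Pf4 read 177 to 230 against 144 to 276 and Ms4a7 6.83 to 17.7 against 7.21 to 20.1. Ccr2, a receptor of blood monocytes, was low throughout (0.539 to 6.88 under saline, 3.59 to 17.9 under methamphetamine). S100a8 and S100a9 were singled out after their values were seen.

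Genes that mark resident microglia were read on the same arrays, with P2ry12 and Tmem119 named as examples outside the rule for naming genes. P2ry12, a purine receptor of microglial processes, read 1341, 1490 and 1160 under saline and 1748, 1503 and 1190 under methamphetamine, with replicate 3 the lowest. Tmem119, a membrane protein of microglia, read 265, 320 and 299 under saline and 270, 416 and 445 under methamphetamine. Of the 37 measured further microglia genes 28 had a higher and 9 a lower mean under methamphetamine. Replicate 3 was the highest of the 6 saline and methamphetamine arrays for 21 of the 37. On all 3 arrays 8 lay above saline, and 1, Slco2b1, lay below it (312 to 400 against 589 to 655). The share of all genes without overlap was not taken, so such counts in this list and those of other cells only describe the arrays. The 37 genes summed to 51436 to 57245 under saline and 56437 to 71455 under methamphetamine, sums in which Cst3 (23250 to 27430 and 26050 to 36690) and Ctss (9464 to 11200 and 9854 to 17010) weigh most. The 10 genes of the set summed to 4747 to 5527 and 5760 to 12063. Astrocyte markers summed to 74643 to 83560 and 89416 to 101103, endothelial markers to 7101 to 8109 and 4444 to 8817, oligodendrocyte markers to 70573 to 89819 and 72538 to 107089, the 3 measured blood genes to 9557 to 13171 and 5894 to 12125, and the cortical profile genes to 859 to 2071 and 1483 to 2378. The part of any of these in the difference was not tested.

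After pretreated amphetamine the C1q chains in the striatum stood between the saline and methamphetamine means. C1qc read 8.79, 8.93 and 9.07 and did not overlap with saline (difference 0.60, adjusted p = 0.535). C1qb read 9.11, 9.49 and 9.33, also without overlap (0.49, adjusted p = 0.589). After pretreated methylphenidate C1qc read 9.14, 8.56 and 8.67 and overlapped with saline (0.46, adjusted p = 0.516). None of these passed the threshold. In the pretreated cortex the groups overlapped: C1qc read 9.0, 8.03 and 8.03 under saline, 8.51, 8.28 and 8.40 under amphetamine, 8.54, 8.71 and 8.30 under methamphetamine, and 9.14, 8.51 and 8.71 under methylphenidate. Replicate 1 of saline and of methylphenidate was the highest of its group there for every C1q chain, Aif1, Tyrobp and Trem2.

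**Figure D4:**
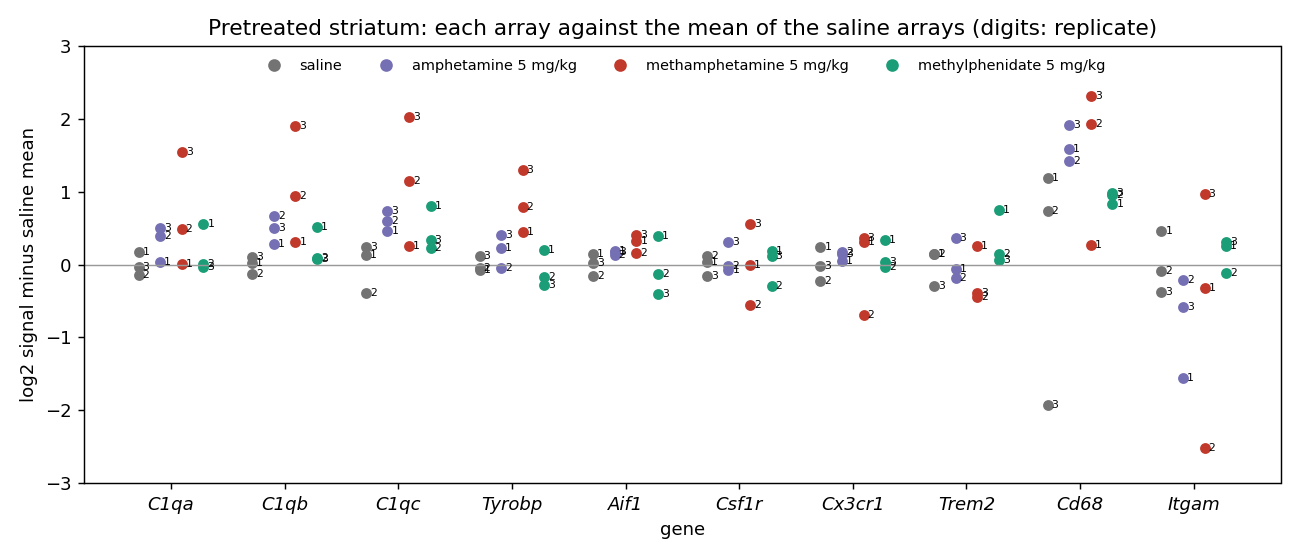
Pretreated striatum: log2 signal of each array minus the mean of the 3 saline arrays (vertical axis) for the 10 genes (horizontal axis), coloured by drug, with digits for the replicate. Methamphetamine replicate 3 is the highest array for every gene except Trem2. For Csf1r, Cx3cr1 and Trem2 the methamphetamine arrays lie on both sides of 0.

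In the naive cohort no single group comparison of the set was called. After amphetamine at 1.25 mg/kg the cortical arrays read 9.38, 9.72 and 9.56 for C1qc and 9.69, 10 and 10.03 for C1qb, giving differences of 0.64 (adjusted p = 0.171) and 0.58 (adjusted p = 0.225), with 0.492% of all genes called. After methamphetamine at 1.25 mg/kg Tyrobp read 9.49 and 9.29 in the cortex against 8.39 to 8.89 under saline (0.74, adjusted p = 0.131), and Aif1 read 10.45 and 10.28 against 9.29 to 10.29 (0.61, adjusted p = 0.143), in a comparison in which 11.1% of all genes were called. In the striatum Tyrobp after methamphetamine at 5 mg/kg read 9.36, 9.29 and 9.94 against 8.51 to 9.05 under saline, without overlap (0.67, adjusted p = 0.146, 0.328% of all genes called). In the cortex the same dose gave 8.57, 10.27 and 8.74, so 1 array of 3 was high. Csf1r in the cortex after methamphetamine at 1.25 mg/kg differed by -0.46 (adjusted p = 0.14). Set against the 3 saline arrays of high BioB alone the difference was -0.68 (SE 0.20, adjusted p = 0.0481, with 4.89% of all genes called), and it rested on 2 arrays that read 8.88 and 9.91. C1qb lay below saline after methylphenidate, by -0.59 in the cortex (adjusted p = 0.244) and -0.58 in the striatum (adjusted p = 0.281), and after amphetamine at 5 mg/kg, by -0.41 (adjusted p = 0.435) and -0.51 (adjusted p = 0.325), all groups of low BioB signal.

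The naive saline arrays themselves were split by BioB class. C1qb showed this most clearly: its cortical saline arrays read 10.12, 9.52 and 9.35 in the high class and 8.85 and 8.81 in the low class, and its striatal ones 9.77, 9.71 and 9.96 against 8.78 and 9.24. Over all naive arrays C1qb ran from 8.65 to 9.14 in the low class (n = 8) and from 9.24 to 10.12 in the high class (n = 11) in the cortex, and from 8.64 to 9.24 (n = 8) and 9.57 to 9.96 (n = 12) in the striatum, with no overlap in either region. Among the 6 tested genes C1qb was the one with low-class arrays all below the high class in each region, against 1.52% of all genes in the cortex and 0.821% in the striatum. The class medians of C1qc differed by -0.53 and -0.52, those of Aif1 by -0.51 and -0.35, those of Csf1r by -0.40 and -0.29, those of Tyrobp by -0.34 and -0.19, and those of C1qa by -0.14 and -0.13 (cortex and striatum). On the pretreated arrays, all of the high class but of another cohort, C1qb ran from 8.53 to 9.60 in the cortex and 8.69 to 10.72 in the striatum. Within saline, C1qb in the low class differed from the high class by -0.83 in the cortex (SE 0.22, adjusted p = 0.0251, 5.73% of all genes called) and by -0.81 in the striatum (adjusted p = 0.089, 2.57% called), a comparison of 2 with 3 arrays that was added after seeing the data. RNA quality and blood moved with the same split of the saline arrays. The log2 ratio of 3′ to 5′ signal of Gapdh was 0.251 to 0.369 in the high and 1.02 to 1.2 in the low class in the cortex, and 0.528 to 0.574 and 1.14 to 1.16 in the striatum. That of actin was 2.04 to 2.89 and 3.85 to 4.3 in the cortex, and 2.71 to 2.77 and 3.54 to 3.80 in the striatum. Hbb, a haemoglobin gene, read 12.1 to 13.8 (log2) in the high and 9.22 to 10.2 in the low class in the cortex, and 12.4 to 13.6 and 9.48 to 10.5 in the striatum. Their part in the C1qb difference was not tested.

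Within a class, the mean of the naive stimulant groups differed from saline for C1qb by 0.03 in the high and -0.00 in the low class in the cortex, and by -0.08 and -0.06 in the striatum. The cortical mean of the high class joins groups on both sides of 0, with amphetamine at 1.25 mg/kg at 0.25, methamphetamine at 1.25 mg/kg at 0.07 and methamphetamine at 5 mg/kg at -0.22. C1qc gave 0.17 and -0.09 in the cortex and 0.11 and 0.05 in the striatum. Csf1r gave -0.44 and -0.02 in the cortex and -0.44 and 0.24 in the striatum. Tyrobp gave 0.34 and 0.05 in the cortex and 0.37 and -0.06 in the striatum. Aif1 gave -0.05 and 0.18 in the cortex and -0.24 and 0.18 in the striatum, and C1qa 0.05 and -0.13, and 0.03 and 0.02.

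Dose was compared within amphetamine and within methamphetamine in the naive cohort, at 5 against 1.25 mg/kg in each region, and 2 of 24 differences of the set were called, against 2.19% of all differences. Both were in the cortex with amphetamine, where 7.07% of all genes were called. C1qb read 9.69, 10 and 10.03 at 1.25 mg/kg and 8.78, 8.82 and 9.14 at 5 mg/kg, a difference of -0.99 (SE 0.24, 95% interval -1.48 to -0.51, adjusted p = 0.0155). C1qc read 9.38, 9.72 and 9.56 against 8.33, 8.62 and 8.83, a difference of -0.96 (SE 0.23, -1.43 to -0.48, adjusted p = 0.0161). The groups did not overlap for either chain, nor for C1qa (10.79 to 11.11 against 10.34 to 10.66), whose difference of -0.46 missed the threshold (adjusted p = 0.0886). Aif1 and Csf1r differed by -0.34 and -0.36, and Tyrobp by 0.01.

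The arrays of amphetamine at 5 mg/kg were all of the low and those at 1.25 mg/kg all of the high BioB class, so dose and class cannot be told apart here. With the class as a block the difference was -0.16 for C1qb (adjusted p = 0.946) and -0.50 for C1qc (adjusted p = 0.772). This block rests on the saline arrays, and its low-class ones read lower in Hbb than the cortical arrays of amphetamine at 5 mg/kg. Leaving out any 1 of 4 arrays (replicates 2 and 3 at 1.25 mg/kg, replicates 1 and 2 at 5 mg/kg) also ended both calls, with adjusted p between 0.0524 and 0.0741. In the striatum, where 1.68% of all genes were called for amphetamine, C1qb differed by -0.73 (adjusted p = 0.134) without overlap and C1qc by -0.49 (adjusted p = 0.342). Methamphetamine was measured at both doses in the high class, and no gene of the 8530 was called in either region (1341 in the cortex and 439 in the striatum had an unadjusted p under 0.05). C1qb differed between its doses by -0.29 in the cortex and -0.09 in the striatum, C1qc by -0.24 and 0.02, and Aif1 by -0.58 in the cortex (adjusted p = 0.347). Tyrobp differed by 0.58 in the striatum (adjusted p = 0.837).

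The stimulants were compared with each other in 14 pairs at matched conditioning dose, cohort and region. Amphetamine and methamphetamine are close analogs, methamphetamine carrying an added methyl group on the nitrogen, while methylphenidate is a piperidine ester. None of the 84 differences of the set was called by limma, against 0.909% of all differences tested. Of the 84, 18 had an unadjusted p under 0.05. Per pair this was 0 to 4 of the 6 genes, and 263 to 2303 of all 8530 genes had such a p. In the naive cohort at 5 mg/kg, methylphenidate and amphetamine share the low BioB class. C1qb differed between them by -0.18 in the cortex (95% interval -0.66 to 0.31) and -0.08 in the striatum (-0.62 to 0.47), and no gene was called in either region. Intervals of this width do not show that the drugs act alike.

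Methamphetamine at 5 mg/kg in the naive cohort was of the high class, and its pairs cannot be told apart from class. C1qb was -0.70 in methylphenidate relative to methamphetamine in the cortex (-1.18 to -0.22, adjusted p = 0.0975, 1.85% of all genes called) and -0.79 in the striatum (adjusted p = 0.111, 1.57% called). Tyrobp was 0.67 in methamphetamine relative to amphetamine in the striatum (0.23 to 1.12, adjusted p = 0.0996, 1.58% called). In the pretreated striatum, where all arrays were of the high class and no gene was called in any pair, Tyrobp was -0.93 (-1.38 to -0.48, adjusted p = 0.221) and C1qb -0.82 (-1.37 to -0.27, adjusted p = 0.463) in methylphenidate relative to methamphetamine. Tyrobp was 0.65 (0.20 to 1.1) and C1qb 0.56 (0.01 to 1.11) in methamphetamine relative to amphetamine (adjusted p = 0.999 for both). Without methamphetamine replicate 1, C1qb (-1.19, adjusted p = 0.0203), C1qc (-1.13, adjusted p = 0.0246) and Tyrobp (-1.13, adjusted p = 0.0136) were called lower in methylphenidate. The share of all genes called was not taken for that fit.

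Whether drug pretreatment changed the stimulant effect was tested as the difference of the 5 mg/kg effects between the cohorts. None of 12 differences of the set was called (0.0352% of all), and 2 had an unadjusted p under 0.05, both in the striatum. Of all 8530 genes 381 had such a p in the cortex and 1435 in the striatum. There the effect on C1qb was 0.88 larger in the pretreated cohort (95% interval 0.30 to 1.46, adjusted p = 0.131) and that on C1qc 0.78 larger (adjusted p = 0.18). In the cortex the value for C1qb was 0.44. Taken drug by drug, an addition made after seeing the data, none of 36 differences was called (0.0215% of all). Of the 36, 8 had an unadjusted p under 0.05. Per drug and region this was 0 to 3 of the 6 genes, and 409 to 1269 of all 8530 genes had such a p. The naive side of these differences mixes the BioB classes.

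The saline groups of the cohorts were also compared, since both received saline throughout. None of 12 differences was called (2.5% of all), and 5 had an unadjusted p under 0.05. These were 3 of 6 genes in the cortex and 2 of 6 in the striatum, against 1621 and 1684 of all 8530 genes. In the cortex C1qb was -0.56, C1qc -0.56 and Csf1r -0.57 (smallest adjusted p = 0.0919) in the pretreated cohort's saline arrays relative to the naive cohort's. In the striatum C1qb was -0.67 (adjusted p = 0.109) and C1qc -0.63. With the BioB class as a block, which sets the pretreated saline arrays against naive saline arrays of the high class, 5 of the 12 were called, against 12.4% of all differences. These were C1qb in the cortex (-0.90, adjusted p = 0.0037) and striatum (-0.99, adjusted p = 0.00673), C1qc in the cortex (-0.74, adjusted p = 0.0288) and striatum (-0.82, adjusted p = 0.0483), and Csf1r in the cortex (-0.80, adjusted p = 0.0053). These pretreated saline arrays are the reference for the pretreated stimulant groups above. They did not overlap with the high-class naive saline arrays in log2 3′ to 5′ ratio. For Gapdh it was 0.695 to 0.882 against 0.251 to 0.369 in the cortex, and 0.744 to 1.036 against 0.528 to 0.574 in the striatum. For actin it was 3.15 to 3.78 against 2.04 to 2.89, and 3.56 to 3.68 against 2.71 to 2.77. Cohort therefore cannot be told apart from RNA or array quality in the 5 calls.

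Striatum and cortex were compared in saline, and none of the 6 genes was called in the naive cohort, where 40.4% of all genes were, nor in the pretreated cohort, where 27% were. No member had an unadjusted p under 0.05. The differences ran from 0.03 for Csf1r to 0.32 for Aif1 (adjusted p = 0.196) in the naive cohort and from -0.02 for C1qc to 0.37 for Aif1 (adjusted p = 0.3) in the pretreated one. A comparison over all 10 conditions, added after seeing the data, called 5 of the 6 genes higher in the striatum, against 36.8% of all genes called higher and 70.4% called in either direction. Aif1 was 0.34 higher (SE 0.08, adjusted p = 0.000179), C1qa 0.27 (SE 0.07, adjusted p = 0.000488), Tyrobp 0.26 (SE 0.09, adjusted p = 0.00982), C1qb 0.21 (SE 0.08, adjusted p = 0.0203) and C1qc 0.19 (SE 0.08, adjusted p = 0.0456). Csf1r stood at 0.16 (adjusted p = 0.0937). The median of the 6 was 0.24 and that of all genes 0.01. Leaving out 1 array at a time, C1qc was called in 29 of 63 fits and Csf1r in 4, and with the mean of both Aif1 probe sets Aif1 was not called (adjusted p = 0.0877).

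The stimulant effect was then compared between the regions. None of 12 differences was called, none had an unadjusted p under 0.05, and no gene of the 8530 was called in either cohort (0%). Of all genes 541 had an unadjusted p under 0.05 in the naive and 438 in the pretreated cohort. In the pretreated cohort the effect on C1qc was 0.52 larger and that on C1qb 0.45 larger in the striatum than in the cortex (adjusted p = 0.969). So the difference from saline that C1qc showed in the striatum was not shown to differ from that in the cortex. For methamphetamine alone, added after seeing the data, the 6 genes had a median of 0.81 and 4 had an unadjusted p under 0.05, with none called. Of all 8530 genes 716 had such a p.

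Further lists of genes put the set beside its pathway. Of 37 measured further microglia genes 22 were tested. None was called in either cortical comparison or in the naive striatum (medians -0.03 and 0.05 in the naive and pretreated cortex, -0.06 in the naive striatum), and 1 was called in the pretreated striatum (median 0.23, against -0.01 for all genes). This was Mertk, a receptor for the engulfment of dying cells, at 9.53 ± 0.23 (n = 9) against 8.77 ± 0.30 (n = 3), a difference of 0.76 (SE 0.17, adjusted p = 0.0425). Of 34 measured complement genes outside the set 10 were tested in the cortex and 11 in the striatum, and none was called (medians -0.01, -0.01, 0.02 and 0.10). Of 15 measured genes for signals to microglia 12 were tested with none called (medians -0.02, -0.09, 0.04 and -0.08). Of 35 measured activation genes 12 or 11 were tested with none called (medians 0.07, -0.02, 0.05 and 0.29). In pretreated methamphetamine alone, Tspo, the mitochondrial protein whose ligands are used to image glial activation, was called higher in the striatum (9.37 ± 0.72 against 8.35 ± 0.04, n = 3 each, difference 1.02, SE 0.23, adjusted p = 0.0348). It was the sole call among the 11 activation genes tested there, and the others ran from -0.09 (Ctsl) to 0.98 (Nfkbia). In this comparison 0.703% of all genes were called and 0.434% were called higher. Tspo was singled out after its value was seen.

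Markers of other cells were read beside the mean of the pretreated stimulant groups in the striatum. All 9 tested astrocyte markers were above 0 with a median of 0.23, while the medians were -0.24 over 9 oligodendrocyte, -0.22 over 8 endothelial and -0.16 over 7 neuronal markers. The 3 tested genes of the cortical profile had a median of 1.18 and the 8 of the striatal profile -0.29. None of these markers was called, and their part in the C1q values was not tested.

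Between the regions in naive saline, where 40.4% of all genes were called, genes of each list were called too, and nothing is read from these counts. Among signals to microglia, Cd200, a neuronal protein that restrains them, was lower in the striatum (difference -0.57, adjusted p = 2.08e-05), and 2 of 12 were higher and 4 lower. Among complement genes 1 of 10 was higher and 3 lower, led by the neuronal pentraxin receptor Nptxr (-2.83) and Nptx1 (-2.48). These pentraxins are synaptic proteins rather than parts of the complement cascade. Among the further microglia genes 3 of 22 were higher and 1 lower: Ly86 (0.58), Rgs10 (0.56) and Fcer1g (0.45, adjusted p = 0.0152) were higher and Inpp5d was lower (-1.39). Of the activation genes 4 of 12 were higher and 1 lower, led by Lpl, a lipoprotein lipase (2.04, adjusted p = 2e-13).

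Within groups the C1q chains varied together. The deviations of C1qb and C1qc from their group means correlated at 0.80 in the cortex (31 arrays) and 0.87 in the striatum (32 arrays), those of C1qa and C1qb at 0.73 and 0.82, and those of C1qa and C1qc at 0.71 and 0.81. The other genes sorted differently in each region. In the cortex Aif1 went with Trem2 (0.87) and with C1qb (0.80), and in the striatum less so (0.47 and 0.32). In the striatum Csf1r went with Itgam (0.79) and Cx3cr1 (0.72), and in the cortex less so (0.34 and 0.43). Csf1r and Tyrobp, whose products are known to signal together in macrophages, correlated at 0.10 and -0.11. These are descriptions: the points share arrays, scaling and, within naive saline, the split by BioB class.

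**Figure D5:**
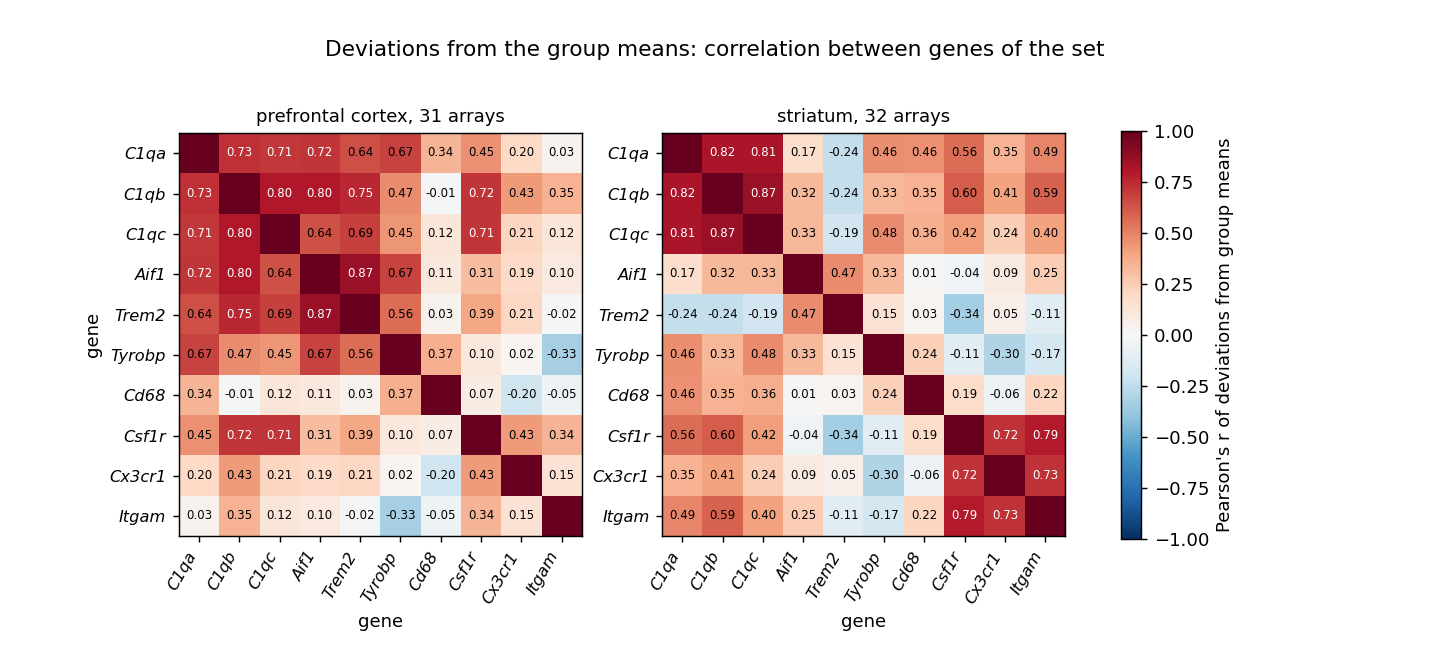
Pearson correlations between the 10 genes over the deviations of arrays from their group means, for 31 cortical and 32 striatal arrays (both axes list genes, the colour scale runs from -1 to 1). The C1q chains form a block in both regions (0.71 to 0.87), Aif1 and Trem2 join it in the cortex, and Csf1r, Cx3cr1 and Itgam form a second block in the striatum (0.72 to 0.79). The blocks are not separate: Csf1r correlates with C1qa, C1qb and C1qc at 0.454, 0.718 and 0.713 in the cortex and 0.555, 0.604 and 0.417 in the striatum.

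The gene most like the set in both regions was Fcer1g, which encodes the gamma chain shared by Fc receptors. Its deviations correlated with the mean of the 6 tested genes at 0.93 over the 31 cortical arrays and 0.86 over the 32 striatal arrays. Next came Tmem176a (0.88), Cib1 (0.86), Banf1 (0.84) and Ntsr2 (0.84) in the cortex, and Slc50a1 (0.73), Sord (0.71), Ctsh (0.70) and Hm13 (0.70) in the striatum. Beyond Fcer1g the nearest genes were different in the 2 regions.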

How the data were processed

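Values are the deposited MAS5 signals, linear intensity per probe set, of 31099 probe sets on 63 arrays. MAS5 is named in the submitters' processing notes, and its version is not given in the sources used here. Names come from GEO's platform annotation, in which 20832 probe sets had 1 symbol, for 14218 genes, each taken by its probe set of highest mean log2 signal. Signals under 1 (18232 values) were set to 1 before log2. Per region, the 40% of genes of lowest mean were left out. Group means of all arrays of a region (of both for region comparisons) were fitted with lmFit, and contrasts moderated by eBayes with an intensity trend, in limma (version 3.58.1, under R 4.3.3), leaving 21 (cortex), 22 (striatum) or 43 residual degrees of freedom, with Benjamini-Hochberg adjustment over all 8530 genes. The number of arrays limits the precision. The fit was tested on simulated data.

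The members, gene lists and tests were chosen with earlier results of these data known. All 10 members are named whatever their values. Other genes are named where called in a mean or saline region comparison (at most 4 per list), or as the 5 per region most correlated with the tested members; exceptions are stated. BioB class was split at a log2 signal of 8. Alternatives were quantile normalization, a constant added before log2, no filter or 60% left out, other probe set rules, no trend, BioB class or replicate number as a block, 1 cohort, no array of cortical profile, and each array left out. Promoter windows are RefSeq's (GRCr8).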

Additional observations from a re-analysis of the deposited data

Results flagged for a closer look

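In 20 sets of 5 naive saline arrays (10 genes in each of 2 regions) the lowest and highest array were compared with the others. Cd68 was the gene with an array far from the rest. In the cortex, saline replicate 1 read 4.52 (log2 signal) while the other 4 arrays read 5.29 to 5.54, a gap of 0.758 of the group's range against a critical value of 0.71. In the striatum, saline replicate 4 read 5.16 while the others read 5.65 to 5.82, a gap of 0.742. Chance gives such a gap in about 1 of 20 groups. Cd68 lay below the filter on low signal, where a small absolute difference is a large one on the log2 scale.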

How the results depend on the processing

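No value called in the reported comparisons changed its sign under an alternative. Values called only under an alternative did so: C1qb in the cortex after amphetamine at 5 mg/kg ran from -0.75 to 0.08, C1qb in methylphenidate relative to methamphetamine there from -0.70 to 0.13, and Csf1r after methamphetamine at 1.25 mg/kg from -0.97 to 0.06. Csf1r in cortical methamphetamine relative to amphetamine at 1.25 mg/kg also changed sign, from -0.995 to 0.032. The counts of 0 for stimulant means in the cortex and naive striatum, for the regions in saline and for the difference of effect between regions stayed 0 under every alternative run. Of the single group comparisons 1 was called: the count was 0 with no filter, with 60% of genes left out, with no intensity trend and with arrays of 1 cohort. It was 3 with the BioB class as a block, against 0.467% of all differences. These were C1qb and C1qc after pretreated striatal methamphetamine, and Csf1r after naive cortical methamphetamine at 1.25 mg/kg. The count was also 3 without the array of cortical profile, and 0 to 4 leaving out 1 array. For C1qc after pretreated methamphetamine the adjusted p ranged from 0.0347 to 0.0901 over 10 alternatives other than leaving out arrays, and 5 of them kept the call. The dose count of 2 became 1 with 60% left out, 0 with the class block, and 0 to 2 leaving out 1 array. With arrays of 1 cohort it was 3, as C1qa in cortical amphetamine was called too (adjusted p = 0.04). The saline cohort count of 0 became 5 with the class block (12.4% of all differences) and 0 to 1 leaving out 1 array. Leaving out 1 array, the count for pretreated striatal means was 0 to 1, that for stimulant pairs 0 to 3, and that for the region difference over all conditions 4 to 6. The share of all genes called was not taken for fits with arrays left out or with arrays of 1 cohort. Where not stated in the report, the cause was not tested.

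Replicate numbers were not shown to pair the arrays: same-numbered arrays of other groups had correlated deviations of -0.472 to 0.461 (12 of 18 pairs over 0.1 in the pretreated cortex). For the same condition and number in both regions, 23 of 31 pairs were over 0.1 (median 0.203, lowest -0.569). With condition and number as the replicate block, the region comparisons called 0 in saline, 0 for the difference of effect and 5 over all conditions. Within regions the replicate block gave 6 calls of 96 for single groups (2.14% of all differences). These were C1qb higher after pretreated striatal methamphetamine (1.05, adjusted p = 0.044) and, in naive groups of low BioB signal, C1qb lower after amphetamine and methylphenidate at 5 mg/kg in both regions and Csf1r lower after methylphenidate in the cortex. C1qc after pretreated methamphetamine was not called with it (1.14, adjusted p = 0.0622). It gave 1 call for pairs (1.3% of all), 1 for the difference between cohorts (C1qb in the striatum, 1.96%) and 4 for saline cohorts (11.8%). Low signal limits Cx3cr1, Cd68, Trem2 and Itgam.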
